A study of Mus musculus with 16 samples.

Results

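Creatine kinases and the genes that supply creatine were followed in the left ventricles of 16 male C57BL/6 mice, 8 to 12 weeks old. The 7 genes were Ckm, Ckb, Ckmt1, Ckmt2, Slc6a8, Gamt and Gatm. They were chosen by symbol as the whole creatine kinase family and the genes of creatine synthesis and uptake, and all 7 were listed among the 55492 genes of the table. PKM2fl/fl mice, in which an exon of Pkm is flanked by loxP sites, served as controls for PKM2-/- mice. In the PKM2-/- mice CMV-Cre had deleted exon 10 in the germline, and the Cre was then bred out, so that PKM2 was lost from all cells and not from cardiomyocytes alone. Hearts were taken at baseline without surgery (n = 2 per genotype), or 3 days after sham surgery (n = 3 per genotype) or myocardial infarction (MI, n = 3 per genotype). MI was made by permanent ligation of the left anterior descending coronary artery (LAD), and sham hearts had the same operation without ligation. RNA came from frozen, pulverised left ventricle tissue, so every library mixes all cell types of the tissue.

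Creatine kinases move the high-energy phosphate of ATP onto creatine and back. In the heart the mitochondrial enzyme makes phosphocreatine where ATP is produced, and the cytosolic enzymes at the myofibrils and ion pumps use it to regenerate ATP. Cardiomyocytes hardly make creatine themselves: Gatm and Gamt act in sequence, mainly in kidney, pancreas and liver, and the transporter SLC6A8 takes creatine up from the blood. The adult heart is known for the muscle-type subunit with a small amount of the brain-type subunit, and the brain-type form is the more abundant one in the fetal heart.

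Promoter windows of the 3 kinases on which the results turn are shown because 2 of them fell together after MI and the third did not. Each is the sequence upstream of the start in RefSeq (build GRCm38.p6, the build of the reads), 5′ to 3′ on the strand of the gene. Capitals mark matches to the motifs named below. The Ckm and Ckb windows hold 250 bases and the Ckmt2 window 212, since the start in the RefSeq promoter table lies 38 bases inside the span RefSeq gives for Ckmt2 and those bases are not printed. The Ckm window is chr7:19410844-19411093 on the forward strand, the Ckmt2 window chr13:91876924-91877135 on the reverse strand and the Ckb window chr12:111672339-111672588 on the reverse strand.
Ckm: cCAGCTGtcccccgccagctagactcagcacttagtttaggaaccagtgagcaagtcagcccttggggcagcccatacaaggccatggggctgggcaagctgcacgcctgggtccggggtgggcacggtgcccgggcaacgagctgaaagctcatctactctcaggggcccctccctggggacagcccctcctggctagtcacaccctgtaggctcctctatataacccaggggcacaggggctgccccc
Ckmt2: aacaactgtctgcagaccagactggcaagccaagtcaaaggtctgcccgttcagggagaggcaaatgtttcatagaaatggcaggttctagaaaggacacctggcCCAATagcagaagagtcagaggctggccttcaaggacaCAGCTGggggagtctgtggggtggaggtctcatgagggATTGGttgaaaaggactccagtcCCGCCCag
Ckb: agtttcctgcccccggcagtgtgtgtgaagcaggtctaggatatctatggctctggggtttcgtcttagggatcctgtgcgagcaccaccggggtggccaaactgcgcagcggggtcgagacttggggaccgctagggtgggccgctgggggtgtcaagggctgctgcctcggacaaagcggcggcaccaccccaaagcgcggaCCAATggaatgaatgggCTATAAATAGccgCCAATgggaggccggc

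The motifs were searched on both strands in the 250 bases before each start in that table, and positions are counted back from the first base of the gene, so that -1 is the last base shown. The Ckm and Ckmt2 windows each held 1 E-box CAGCTG, with its first base at -249 and -69, and 13.0% of all 32851 promoters held one. The Ckb window held none. It held the TATA box TATAAA at -28 (12.4% of all promoters), which lies inside a match at -29 to the MEF2 site, CTA and TAG with any 4 bases between them (3.20%), and neither motif was matched for Ckm or Ckmt2. Only the exact letters TATAAA were searched for the TATA box. The Ckm window holds tatataa close to its end, so the lack of a match does not show that Ckm has no TATA box. CCAAT was matched at -46 and -16 for Ckb and at -107 and -31 for Ckmt2 (33.8% of all promoters). GGGCGG was matched once for Ckmt2, at -8 (32.7%). No match to the ERR half-site AAGGTCA (4.08%) or the CArG box (1.47%) was found in the 3 windows. Of the 7 genes, 6 had a promoter entry and Slc6a8 had none.

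Libraries held 20623769 to 71855101 reads assigned to genes. Values are normalized counts, the read count of a gene divided by the size factor of its library. Between 15.9% and 49.4% of reads lay on loci related to ribosomal RNA. That share was 22.4% ± 6.13 (SD, n = 3) after sham and 39.4% ± 16.6 (n = 3) after MI in PKM2fl/fl hearts, and 36.0% ± 10.6 and 29.0% ± 11.0 (n = 3 each) in PKM2-/- hearts. At baseline it was 17.4% and 22.3% in the PKM2fl/fl hearts and 45.2% and 41.1% in the PKM2-/- hearts. Its part in the results was not tested. Pkm itself, counted over both isoforms, ranged from 7779 to 12076 in PKM2fl/fl and from 10120 to 16113 in PKM2-/- hearts, so gene counts give no check of the deleted exon. Its mean was higher in PKM2-/- hearts by 0.42 on the log2 scale at baseline and 0.59 after sham, without overlap, and by 0.21 after MI, with overlap. Over all treatments the difference was 0.40 (exact permutation test within treatment, two-sided, p = 0.0042). All 9 cardiomyocyte markers were present in every library, as fits left ventricle. Of 5 skeletal muscle markers, the fast myosin genes Myh4 and Myh1 had 0 reads in 11 and 8 of the 16 libraries. Mylpf, Tnnt3 and Tnni2 had reads in every library, with means of 16.6, 34.0 and 19.3 normalized counts.

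The 7 genes spanned a wide range of levels. Per kilobase of coding sequence, mean normalized counts over the 16 libraries were 16361 for Ckmt2, 16014 for Ckm, 1325 for Slc6a8, 527 for Ckb, 100.4 for Gamt, 2.43 for Ckmt1 and 0.790 for Gatm. Ckm, the muscle-type cytosolic subunit, and Ckmt2, the sarcomeric mitochondrial enzyme, did not keep a fixed order. Ckm was above Ckmt2 in 4 of 4 baseline hearts, in 2 of 6 sham hearts and in 0 of 6 MI hearts. Slc6a8, Ckb and Gamt kept their order in all 16 libraries. With whole-exon lengths of the GENCODE M39 models in place of coding lengths, Ckmt2 was above Ckm in all 16 libraries and Slc6a8 was above Ckb in 11 of them, so these 2 orders depend on the length used.

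Ckmt1, the ubiquitous mitochondrial creatine kinase, and Gatm, which makes guanidinoacetate from arginine and glycine, were close to absent. Ckmt1 had 54 reads over all 16 libraries, with 0 to 10 per library. No Ckmt1 read was found in either PKM2-/- baseline heart, which allows a level of up to 3.50 and 5.50 normalized counts, and the 2 PKM2fl/fl baseline hearts had 3.14 and 2.65. A difference at baseline was therefore not detectable at this depth. Gatm had 22 reads in all and 0 in 9 of 16 libraries. Both genes were under the mean of 10 normalized counts set for testing, so 5 of the 7 genes were tested. These limits cover counting error only.

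**Figure D1:**
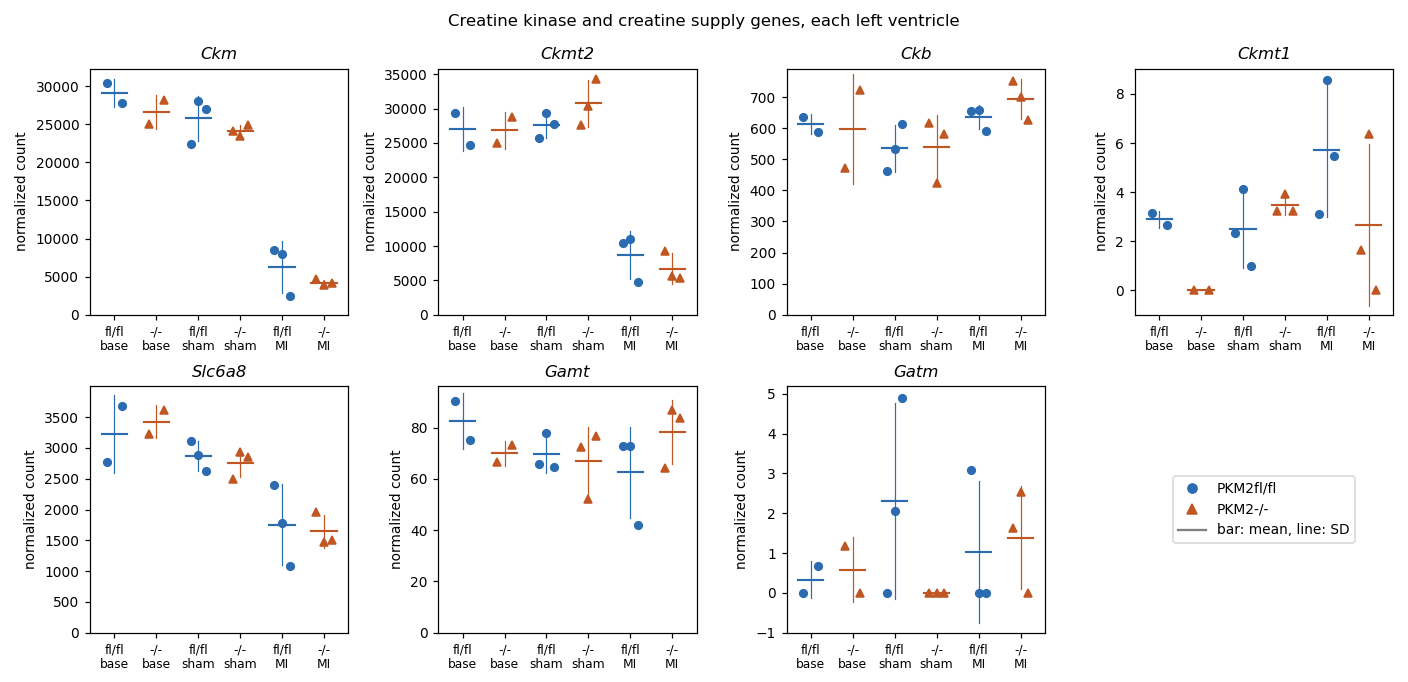
Normalized counts (vertical axis, linear, a separate scale for each gene) of the 7 genes in each left ventricle, by genotype and treatment; points are hearts, horizontal bars group means and vertical lines SD. Within each genotype Ckm, Ckmt2 and Slc6a8 are lower in all 3 MI hearts than in all 3 sham hearts. The same held for 28.8% of all genes in PKM2fl/fl and 30.3% in PKM2-/- hearts. Over both genotypes Ckb and Gamt overlap between sham and MI, and Ckmt1 and Gatm stay under 9 normalized counts.

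The first question was what MI did to these transcripts. Ckm was 4.71-fold lower after MI than after sham in PKM2fl/fl hearts and 5.72-fold lower in PKM2-/- hearts, and Ckmt2 was 3.37-fold and 4.70-fold lower. The creatine transporter gene Slc6a8 fell less, by 1.72-fold and 1.69-fold. Ckb, the brain-type cytosolic subunit, was slightly higher after MI over both genotypes, and Gamt, which methylates guanidinoacetate to creatine, passed no test. In PKM2fl/fl hearts 3 genes were called lower and 0 higher at an adjusted p under 0.05, where 45.2% of all genes tested were called and 22.0% were called lower. The count was again 3 lower and 0 higher in PKM2-/- hearts, where 54.3% of all genes were called and 26.4% were called lower. Over both genotypes 3 were called lower and 1 higher, where 64.2% of all genes were called, 31.4% of them counted as lower and 32.7% as higher, both as shares of all genes. Over both genotypes 6740 genes were called higher and 6478 lower, a split that became 5347 and 3257 with libraries scaled to total reads and 9519 and 4097 with libraries scaled to reads outside the rRNA-related loci; the median log2 fold change over all genes was then 0.19 and 0.30. MI changed so much of the transcriptome that being called does not set these genes apart. In whole ventricle, fewer cells of a type and less RNA per cell cannot be told apart.

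Ckm had 22468, 28016 and 26950 normalized counts in the 3 PKM2fl/fl sham hearts and 8530, 7929 and 2403 in the 3 PKM2fl/fl MI hearts. The PKM2-/- hearts had 24099, 23427 and 24956 after sham and 4652, 3879 and 4166 after MI. Every MI heart was far below every sham heart (28.8% of all genes had all PKM2fl/fl MI hearts below all PKM2fl/fl sham hearts, and 30.3% in PKM2-/-), and the PKM2fl/fl MI hearts were the more scattered, with 1 heart below all PKM2-/- MI hearts and 2 above them. The log2 fold change was -2.23 (95% interval -3.25 to -1.22, adjusted p = 0.00474) in PKM2fl/fl and -2.52 (-2.77 to -2.27, adjusted p = 4.13e-07) in PKM2-/- hearts, by limma's test with Benjamini-Hochberg adjustment.

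Ckmt2 couples phosphocreatine formation to mitochondrial ATP. It had 25660, 29349 and 27712 normalized counts after sham and 10371, 11016 and 4753 after MI in PKM2fl/fl hearts. In PKM2-/- hearts the values were 27566, 30350 and 34318 after sham and 9280, 5586 and 5318 after MI. Again the MI and sham hearts did not overlap, and the same PKM2fl/fl MI heart was the lowest. The log2 fold change was -1.75 (95% interval -2.47 to -1.04, limma, adjusted p = 0.00298) in PKM2fl/fl and -2.23 (-2.69 to -1.77, adjusted p = 1.23e-05) in PKM2-/- hearts.

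Slc6a8 had 3108, 2888 and 2625 normalized counts after sham and 2405, 1774 and 1082 after MI in PKM2fl/fl hearts. Its counts in PKM2-/- hearts were 2498, 2933 and 2852 after sham and 1957, 1466 and 1506 after MI. The highest MI heart was only just under the lowest sham heart, so the separation was narrow. Its log2 fold change was -0.78 (95% interval -1.38 to -0.19, limma, adjusted p = 0.0381) in PKM2fl/fl and -0.76 (-1.04 to -0.47, adjusted p = 6.75e-04) in PKM2-/- hearts. The PKM2fl/fl call was lost, with an adjusted p of up to 0.112 by limma, when any 1 of the 3 sham hearts or the second MI heart was left out. It was also lost with libraries scaled to total reads, where the estimate was larger, at -0.96 (limma, adjusted p = 0.0506). When they were scaled to reads outside the rRNA-related loci its log2 fold change was -0.57 (limma, adjusted p = 0.0939). In PKM2-/- hearts, scaling to total reads left -0.25 (limma, adjusted p = 0.567), a scale that moved the median of all genes in that comparison to 0.54.

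Ckb had 462, 532 and 612 normalized counts after sham and 655, 659 and 592 after MI in PKM2fl/fl hearts. In PKM2-/- hearts it had 616, 423 and 583 after sham and 752, 701 and 625 after MI. The groups overlapped in PKM2fl/fl hearts, while the PKM2-/- MI hearts were all above the PKM2-/- sham hearts, as for 32.2% of all genes. Over both genotypes Ckb was higher by 0.31 on the log2 scale (95% interval 0.090 to 0.54, limma, adjusted p = 0.0165), where 32.7% of all genes were called higher. The MI and sham hearts overlapped. Within a genotype it passed in neither, at 0.25 (adjusted p = 0.151, limma) in PKM2fl/fl and 0.37 (adjusted p = 0.0630) in PKM2-/- hearts. These calls depended on the scale. With libraries scaled to reads outside the rRNA-related loci Ckb was called higher in both, by 0.46 in PKM2fl/fl (limma, adjusted p = 0.0325, where 31.2% of all genes were called higher and the median of all genes moved to 0.22) and by 0.73 in PKM2-/- hearts (limma, adjusted p = 0.00362, where 41.7% were called higher and the median moved to 0.39). Over both genotypes it was then 0.60 (limma, adjusted p = 5.13e-04). Scaled to total reads, it was called in PKM2-/- hearts, at 0.88 (limma, adjusted p = 0.0198, where 34.3% were called higher and the median moved to 0.54), whereas in PKM2fl/fl hearts it was 0.077 (limma, adjusted p = 0.925) and over both genotypes 0.48 (limma, adjusted p = 0.126). Without the first PKM2-/- sham heart the PKM2-/- value was 0.48 (limma, adjusted p = 0.0390, where 25.7% were called higher).

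Gamt had 64.7 to 78.0 normalized counts in PKM2fl/fl sham and 42.1 to 72.9 in PKM2fl/fl MI hearts. PKM2-/- hearts had 52.2 to 76.6 after sham and 64.0 to 87.0 after MI. Over both genotypes its log2 fold change was 0.019 (95% interval -0.37 to 0.41, limma, adjusted p = 0.935), from 40 to 137 reads per library. An interval of that width still holds changes of about the size seen for Ckb.

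**Figure D2:**
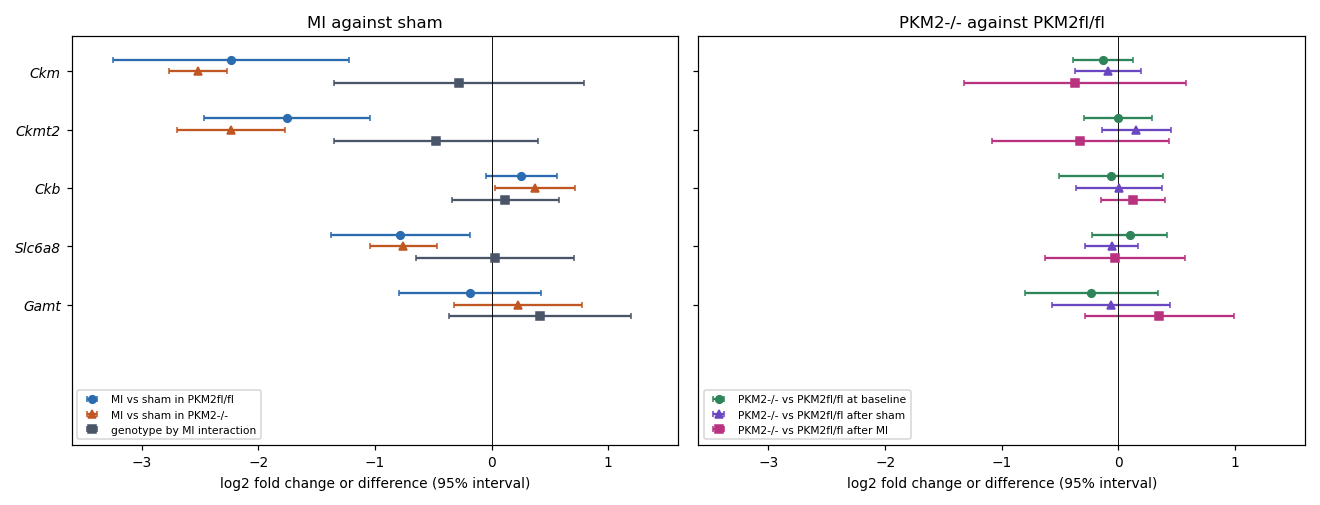
Log2 fold change of MI against sham in each genotype with the difference between the 2 genotypes' responses (left), and log2 fold change of PKM2-/- against PKM2fl/fl at each treatment (right), for the 5 tested genes; points are limma estimates and lines 95% intervals. On the left the intervals of Ckm, Ckmt2 and Slc6a8 lie below 0 in both genotypes, and on the right every interval includes 0.

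The second question was whether loss of PKM2 changed the response. None of the 5 genes had a genotype by MI interaction past the threshold in limma, and 0 of 20604 genes did, or 0% of all, with 1468 at an unadjusted p under 0.05. The difference between the responses was -0.28 for Ckm on the log2 scale (95% interval -1.35 to 0.79, limma, adjusted p = 0.918). For Ckmt2 it was -0.48 (-1.35 to 0.40, limma, adjusted p = 0.817). For Slc6a8 it was 0.026 (-0.65 to 0.70, limma, adjusted p = 0.989). These intervals are wide enough to hold differences of 2-fold for Ckm and Ckmt2.

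The genotypes were also compared at each treatment. Ckm had 30356 and 27803 normalized counts in the 2 PKM2fl/fl baseline hearts and 25016 and 28216 in the 2 PKM2-/- baseline hearts. Ckmt2 had 29307 and 24746 against 24969 and 28758, and Slc6a8 had 2775 and 3673 against 3232 and 3612. Within each of the 3 genes the genotypes overlapped. Gamt had 90.3 and 75.0 in PKM2fl/fl and 66.4 and 73.3 in PKM2-/- baseline hearts, without overlap. Its exact permutation p, two-sided, was 0.333, the smallest that 2 against 2 hearts allow. The log2 differences at baseline were -0.13 for Ckm (95% interval -0.39 to 0.13), -0.0072 for Ckmt2 (-0.30 to 0.29), -0.067 for Ckb (-0.51 to 0.38), 0.10 for Slc6a8 (-0.22 to 0.42) and -0.23 for Gamt (-0.81 to 0.34). By limma, 0 of the 5 were called at baseline, where 0.238% of all genes were called, 0 after sham, where 0.0447% were, 0 after MI, where 0.0291% were, and 0 over all treatments, where 0.0243% were. At baseline alone, scaling to total reads called all 5 lower in PKM2-/- hearts along with 60.2% of all genes, and it moved the median of all genes to -0.59. With libraries scaled to reads outside the rRNA-related loci, 54 of 19826 genes were called at baseline and that median was -0.094.

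After sham, PKM2-/- hearts differed from PKM2fl/fl on the log2 scale by -0.089 in Ckm (95% interval -0.37 to 0.19), 0.15 in Ckmt2 (-0.14 to 0.45), 0.0040 in Ckb (-0.36 to 0.37), -0.058 in Slc6a8 (-0.28 to 0.17) and -0.065 in Gamt (-0.57 to 0.44). After MI the intervals of both muscle kinases were wider, at -0.37 for Ckm (-1.32 to 0.58, limma, adjusted p = 0.744) and -0.33 for Ckmt2 (-1.09 to 0.44, limma, adjusted p = 0.718). The standard error for Ckm was 0.42 after MI, and 1 heart accounted for most of it.

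The third PKM2fl/fl MI heart had 2403 normalized counts of Ckm, against 8530 and 7929 in the other 2 of its group. Without it, Ckm was lower in PKM2-/- than in PKM2fl/fl hearts after MI by 0.96 on the log2 scale (log2 difference -0.96, SE 0.11, limma, adjusted p = 0.00463, n = 2 and 3), where 7.68% of all genes were called. The interaction for Ckm then became -0.87 (SE 0.17, limma, adjusted p = 0.0376), where 1.17% of all genes were called. Ckmt2 and Slc6a8 passed neither test without it, at -0.72 (limma, adjusted p = 0.0856) and -0.34 (limma, adjusted p = 0.242) after MI. That heart also had the lowest cardiomyocyte marker level of all, with a geometric mean of 17302 normalized counts over the 9 markers, against 38859 and 39299 in the other 2. The PKM2-/- MI hearts had 27773, 19719 and 19260. Taken against those markers in the same heart, log2 Ckm was -2.19 and -2.31 in the 2 remaining PKM2fl/fl MI hearts and -2.58, -2.35 and -2.21 in the PKM2-/- MI hearts, which overlap. In the third PKM2fl/fl MI heart it was -2.85, the lowest of all hearts, so its Ckm was low relative to its markers as well.

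The third question was what the operation did without infarction. Over both genotypes 0 of them were called between sham and baseline by limma, where 6.55% of all genes were called. Slc6a8 had the largest estimate, at -0.23 on the log2 scale (95% interval -0.43 to -0.037, limma, adjusted p = 0.154), and it passed only when the first PKM2fl/fl baseline heart was left out (-0.33, adjusted p = 0.0454, where 4.74% of all genes were called). Ckm was at -0.16 (-0.34 to 0.027, limma, adjusted p = 0.311).

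Within the kinase family the make-up of the transcript pool changed after MI. The 4 kinase genes together had 40477 to 50431 normalized counts per coding kilobase in the 10 uninjured hearts and 6406 to 16289 in the 6 MI hearts. Ckb held 0.822% to 1.31% of that sum in uninjured hearts and 3.52% to 8.08% after MI, and the ranges did not overlap. The Ckb share was 5.05% ± 2.63 (SD, n = 3) in PKM2fl/fl and 6.39% ± 0.914 (SD, n = 3) in PKM2-/- MI hearts, against 1.04% ± 0.105 and 1.03% ± 0.207 after sham. Counts of Ckb itself differed far less between sham and MI than its share did.

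The ratio of 2 genes in one library does not depend on how libraries are scaled. Ckb counts were 2.06%, 1.90% and 2.27% of Ckm counts in PKM2fl/fl sham hearts and 7.68%, 8.31% and 24.6% in PKM2fl/fl MI hearts. The PKM2-/- values were 2.56%, 1.81% and 2.33% after sham and 16.2%, 18.1% and 15.0% after MI. The ratio was higher in all 6 MI hearts than in any sham heart, by 6.45-fold on average (2.69 on the log2 scale, exact permutation test within genotype, two-sided, p = 0.005, the smallest that 400 relabellings allow, 0.0200 after adjustment over 8 ratio tests). On that scale Ckm itself fell by 2.38 over both genotypes and Ckb rose by 0.31. A gene with no change of its own would come out higher relative to Ckm by 2.38, so this test mostly restates the fall of Ckm. Ckmt2 counts were 107.3% ± 6.09 of Ckm in PKM2fl/fl sham hearts and 152.8% ± 39.9 after MI, and 127.2% ± 11.7 and 157.0% ± 37.6 in PKM2-/- hearts (SD, n = 3 each). That difference of 0.38 on the log2 scale had an exact permutation p of 0.0200 and an adjusted p of 0.0533, which missed the threshold, and the PKM2-/- sham and MI hearts overlapped. Neither ratio differed between genotypes over all treatments past the threshold (0.22 for Ckb to Ckm, exact permutation p = 0.293, and 0.14 for Ckmt2 to Ckm, exact permutation p = 0.189). Ratios with Ckmt1 or Gatm rest on counts near 0 and are not read here.

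**Figure D3:**
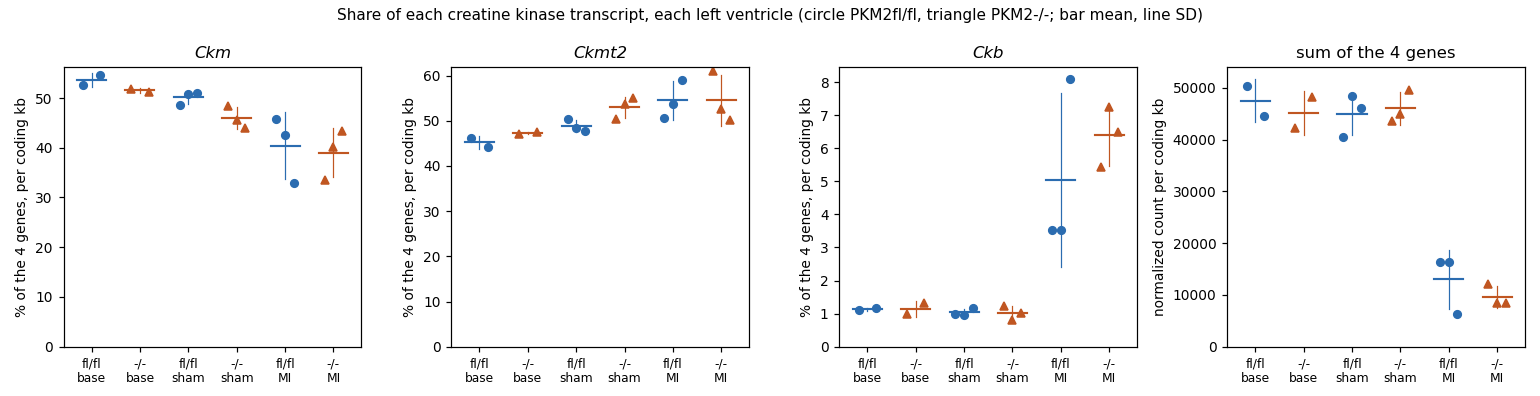
Share of Ckm, Ckmt2 and Ckb in the summed level of the 4 creatine kinase genes (percent, per coding kilobase) and that sum (normalized counts per coding kilobase) in each left ventricle; points are hearts, bars means and lines SD. The sum falls to at most 16289 in MI hearts from at least 40477 in uninjured hearts while the Ckb share rises above 3.5% in all 6 MI hearts.

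Other transcripts of cardiomyocytes fell too. All 9 cardiomyocyte markers, sarcomere and calcium-handling genes, were called lower after MI over both genotypes, with log2 fold changes from -2.31 to -0.98 and a median of -1.94, beside a median of 0.018 over all genes tested. Their summed level ranged from 976236 to 1099991 normalized counts in PKM2fl/fl sham hearts and from 190370 to 435972 after MI. In PKM2-/- hearts it ranged from 866696 to 1039951 after sham and from 198609 to 287860 after MI. Markers of other cells were mixed, where 32.7% of all genes were called higher and 31.4% lower. Of 5 fibroblast markers 4 were called higher and 1 lower, with sums of 20865 to 38524 after sham and 130189 to 140595 after MI in PKM2fl/fl hearts and 23399 to 38008 and 115187 to 154445 in PKM2-/- hearts. Of 8 leukocyte markers 6 were called higher and 0 lower, with sums of 5196 to 10635 and 20805 to 36690 in PKM2fl/fl hearts and 7213 to 9119 and 28798 to 33268 in PKM2-/- hearts. Of 4 smooth muscle markers 3 were called higher and 1 lower, of 4 endothelial markers 1 higher and 2 lower (median log2 fold change -0.076), of 4 atrial markers 1 higher and 0 lower (median -0.96), of 3 tested neuronal and glial markers 1 higher and 1 lower, and of 3 tested skeletal muscle and 3 erythroid markers 1 each higher and 0 lower. Their part in the falls of Ckm, Ckmt2 and Slc6a8 was not tested.

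The 5 genes were then set against the mean log2 level of the 9 cardiomyocyte markers of the same heart, which fell by 1.83 from sham to MI. Relative to the markers Ckm was lower after MI by a further 0.54 (log2 difference -0.54, exact permutation test within genotype, two-sided, p = 0.005). Ckmt2 moved almost with the markers, at -0.16 (exact permutation p = 0.01), and its sham and MI hearts overlapped in PKM2fl/fl but not in PKM2-/- hearts (-1.54 to -1.51 after sham and -1.86 to -1.58 after MI). Slc6a8 was higher relative to the markers by 1.06, Gamt by 1.85 and Ckb by 2.15 (exact permutation p = 0.005 for each). These are 5 tests, and 0.005 is the smallest p the design allows. Since the markers fell by 1.83, a gene with no change of its own comes out higher by that amount. By their own levels Gamt changed by 0.019, Slc6a8 by -0.77 and Ckb by 0.31 on the log2 scale. The median over all genes was 0.018, so being higher relative to the markers does not set these genes apart. With only Tnnt2, Tnni3 and Actc1 as markers, the direction was the same for all 5.

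**Figure D4:**
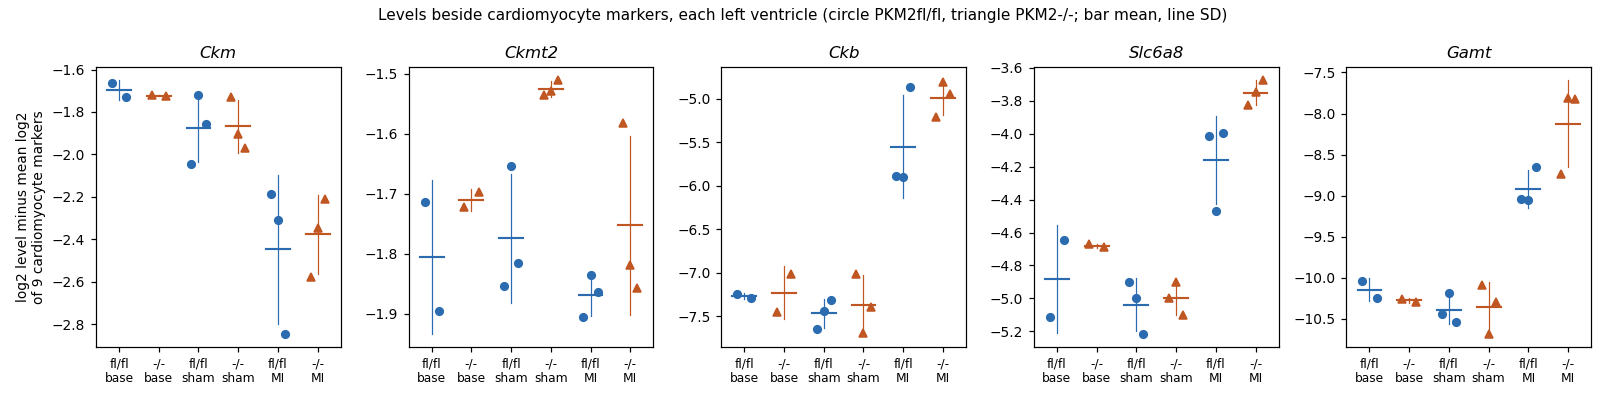
Log2 level of each of the 5 tested genes minus the mean log2 level of 9 cardiomyocyte markers in the same left ventricle (vertical axis, a separate scale for each gene); points are hearts, bars means and lines SD. The markers themselves fell by 1.83 after MI. Relative to them Ckm is lower and Slc6a8, Gamt and Ckb are higher, while Ckmt2 stays between -1.91 and -1.51 in every heart.

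Neighbouring pathways gave a mixed picture over both genotypes, where 31.4% of all genes were called lower after MI and 32.7% higher. Of 15 energy transfer partners (adenylate kinases, nucleoside diphosphate kinases, adenine nucleotide and phosphate carriers and voltage-dependent anion channels), 10 were called lower and 3 higher after MI, with a median log2 fold change of -0.72. Slc25a3, the mitochondrial phosphate carrier, fell by 1.32, Vdac1, the outer membrane channel, by 1.31 and Ak3, the matrix adenylate kinase, by 0.93 on the log2 scale, whereas Nme1, a nucleoside diphosphate kinase, rose by 1.04. Of 11 genes that make or use arginine, ornithine or methyl donors, 9 were tested, and 6 were called higher and 3 lower. The list mixes genes that make these compounds with genes that consume them, so the count gives no direction of supply to creatine synthesis. Arg1, the cytosolic arginase, rose by 5.90, Nnmt, which methylates nicotinamide, by 1.44 and Ass1, which makes argininosuccinate, by 1.30, while Mat2b, a regulatory subunit of methionine adenosyltransferase, fell by 0.61.

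Transcription factors and coactivators known for muscle and oxidative genes were nearly uniform. Of 13, 12 were called lower after MI over both genotypes and 0 higher, where 31.4% of all genes were called lower. Their median was -1.25, a smaller fall than the median of -1.94 of the 9 cardiomyocyte markers. Klf15, a factor of cardiac lipid and amino acid metabolism, fell by 2.34 on the log2 scale, Ppara, the fatty acid receptor, by 2.26, Esrrg by 1.94 and Esrra by 1.25, both oestrogen-related receptors of mitochondrial genes. Mef2a was at -0.0073 (limma, adjusted p = 0.947). None of these 3 lists had a gene called between genotypes at any treatment, in the genotype by MI interaction or over all treatments.

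Some genes followed these transcripts closely across the 16 libraries. Correlations were taken on log2 values over 13470 genes with a mean of at least 100, and they carry the shared MI difference and shared libraries. The closest to Ckm were A930016O22Rik (Pearson's r = 0.998), Tmem143 (0.997) and Eno3, the muscle enolase (0.995). Those closest to Ckmt2 were 1700119I11Rik (0.997), Slc25a11, the oxoglutarate carrier (0.994), and Mtfr1l (0.994). Slc6a8 was closest to Gm17197 (0.968), Gm16861 (0.965) and Zfp651 (0.965). Ckb had no partner above 0.871 (Cc2d1a) and Gamt none above 0.745 (Gm42742).

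The closest partners of Ckm and Ckmt2 overlap them on the opposite strand. A930016O22Rik shares 4917 bases with Ckm and had 33.1% to 44.3% of its normalized count, and 1700119I11Rik shares 637 bases with Ckmt2 and had 8.81% to 11.0%. The library kit does not mark strand and the counting setting is not given in the sources used here, so reads of these pairs cannot be told apart and their values are uncertain. Gamt likewise overlaps Ndufs7 over 5090 bases and Ckb overlaps Trmt61a over 2022 bases. All these overlaps are of GENCODE M39 models, which need not be the models used for counting. RefSeq on GRCm38.p6 gives Gamt a span shorter than that overlap, chr10:80258151-80261025.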

How the data were processed

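RNA of 16 left ventricles was depleted of ribosomal RNA and sequenced in pairs. The submitters' processing notes name HISAT2, featureCounts and DESeq2 and the build mm10. The authors trimmed reads with PRINSEQ, aligned them, counted reads per gene and deposited a normalized signal, the count divided by a DESeq2 size factor. The table also holds the authors' comparison at baseline, which was not used. Dividing each library's values by their step gave whole reads for 100.0% of values (within 0.01 read). Each sample is taken as a separate mouse; p-values measure the spread between these samples.

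Comparisons used limma (3.58.1, run in R 4.3.3) on log2(value + 1), for genes with a mean of at least 10 over the libraries of a comparison. Fold changes are on that scale, which understates changes of low genes. The model had treatment or genotype, with the other factor as a term where both were pooled. Adjustment was by Benjamini-Hochberg over all genes, and adjusted p under 0.05 was called. Ratios and levels beside markers were compared by exact two-sided permutation tests within strata. Members and lists were chosen with earlier results of these data known. All 7 members are named, with at most 4 called genes of smallest p from each other list and the 3 genes most correlated with each tested member. Alternatives were TMM, total reads with and without rRNA-related loci (12 of 20 listed were found), DESeq2 1.42.0 and edgeR 4.0.16 on recovered reads, a pseudocount of 0.1, no filter, all 16 libraries in 1 fit, replicate numbers as a block, a 2-fold rule and each library left out. The limma fit was tested on simulated data. Gene positions and promoters come from RefSeq on GRCm38.p6, coding lengths and overlaps from GENCODE M39. A count of 0 was taken to allow up to 3 reads.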

Additional observations from a re-analysis of the deposited data

How the results depend on the processing

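Ckm and Ckmt2 were called lower after MI, in each genotype and over both, under every scale, tool, filter and pseudocount tried and without any 1 library. Slc6a8 lost calls, and Ckb lost or gained them, under the scales and without the libraries given above. Of the 4 genes called over both genotypes, Slc6a8 (1.71-fold lower) and Ckb (1.24-fold higher) did not reach a 2-fold change, and Ckm and Ckmt2 did. No share of all genes is given for the 2-fold rule, so passing it does not set Ckm and Ckmt2 apart. At baseline, total reads as the scale called 5 genes between genotypes, and Slc6a8 became -0.49. Leaving out 1 library gave 0 to 1 calls for the interaction, for PKM2-/- against PKM2fl/fl after MI and for sham against baseline; both genotype calls were Ckm without the third PKM2fl/fl MI heart. Of 795 repeats of the 45 gene results, 58 changed sign, all in results that passed no test.

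With total reads as the scale, the interaction became 0.41 for Ckm and 0.21 for Ckmt2. On the same scale the genotype difference was -0.32 for Ckb and -0.17 for Ckmt2 after sham, 0.041 for Ckmt2 and 0.34 for Slc6a8 after MI, and -0.10 for Ckb and -0.081 for Gamt over all treatments. With reads outside rRNA-related loci as the scale it was -0.030 for Ckb after sham and 0.084 for Slc6a8 after MI, and Gamt was at 0.019 for MI against sham in PKM2fl/fl hearts. TMM gave -0.019 for Ckb after sham, and the fit of all 16 libraries 0.0029 for Slc6a8 over all treatments. The interaction for Slc6a8 was -0.035 by DESeq2 and -0.043 by edgeR.

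Without 1 library each, MI against sham in Gamt ran from -0.32 to 0.070 in PKM2fl/fl hearts and from -0.079 to 0.16 over both genotypes. The interaction ran from -0.87 to 0.041 for Ckm, from -0.28 to 0.29 for Slc6a8 and from -0.049 to 0.22 for Ckb. Genotype differences at baseline ran from -0.13 to 0.11 for Ckmt2, from -0.10 to 0.30 for Slc6a8 and from -0.37 to 0.24 for Ckb. After sham they ran from -0.10 to 0.17 for Ckb, from -0.12 to 0.013 for Slc6a8 and from -0.17 to 0.10 for Gamt, and after MI from -0.34 to 0.23 for Slc6a8. Over all treatments they ran from -0.11 to 0.079 for Slc6a8, from -0.016 to 0.095 for Ckb, from -0.17 to 0.025 for Ckmt2 and from -0.060 to 0.11 for Gamt.

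For the log2 ratios, the MI difference without 1 library ran from 0.28 to 0.46 for Ckmt2 to Ckm, past the threshold without any 1 PKM2fl/fl MI heart or the third PKM2-/- MI heart (exact permutation, adjusted p from 0.0133), and from -0.48 to 0.17 for Gamt to Gatm. The genotype difference of Ckmt2 to Ckm ran from 0.075 to 0.20 and passed without the third PKM2fl/fl MI heart. With a pseudocount of 0.1 the MI difference of Ckmt1 to Ckmt2 was 1.74 in place of 2.11 and no longer passed. Relative to cardiomyocyte markers, Ckmt2 ran from -0.20 to -0.13 and missed the threshold without any 1 PKM2-/- sham heart; fewer relabellings are then possible.

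The labels number the replicates but do not say whether animals were paired, and they were treated as unpaired. Deviations from the group means correlated from -0.20 to 0.13 over 36 same-numbered pairs, 1 of them above 0.1, and the replicate number as a block changed no call of these genes. With 2 or 3 hearts per group the number of hearts limits precision: the 95% interval of the genotype difference after MI ran from -1.32 to 0.58 for Ckm and from -1.09 to 0.44 for Ckmt2.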
